A study of Mus musculus with 6 samples.

Results

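The genes described are 41 DNA replication and licensing genes, out of 17213 genes in the deposited count table. They were chosen by symbol for their known place in the replication machinery, by a rule that uses no measured value but was written with earlier results of these data known; all 41 were found in the table, and all 41 passed the filter on low counts, which left 14632 genes for testing. They were read in cells sorted from the dental follicle, the soft tissue that encloses a tooth before it erupts, of mouse mandibular molars at postnatal day 8. The sorted cells carried the red reporter tdTomato, used as the mark of cells that express PTHrP, the secreted peptide encoded by Pthlh. One group holds 3 libraries labelled KO, with the genotype Pth1r(-/-), and the other 3 libraries labelled Het, with the genotype Pth1r(+/-), so that cells of the Het group also carry 1 lost allele of Pth1r, the receptor for PTH and PTHrP. Both groups carried the reporter and received tamoxifen, on day 3 according to the series text and on day 8 according to the sample descriptions. In the published study the recombinase was a tamoxifen-inducible Cre driven by PTHrP regulatory sequences, so recombination is limited to cells with that promoter active at the time of the pulse. A mark set at the pulse does not show that a cell still expressed PTHrP when it was sorted. The labels name no animals and do not say that the libraries came from separate ones, so each p-value here reflects the spread of these 6 samples alone, part of which may be technical.

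Eukaryotic cells copy each stretch of DNA once per cell cycle by separating the loading of the helicase from its activation. In G1 phase the origin recognition complex, CDC6 and CDT1 load the MCM2-7 ring onto DNA, a step called licensing. In S phase kinases, MCM10, CDC45 and the GINS complex turn the ring into an active helicase, and polymerases, the PCNA clamp, its loader and DNA ligase copy and join the strands. Most of these genes are transcribed around the G1 to S transition under E2F factors, so that their transcripts are abundant in cycling cells and scarce in resting cells.

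Promoter sequence bears on these genes because E2F factors recognise a short element shared by many of them, so the stretches that hold a match are shown for the 9 genes with a match before a RefSeq transcription start. RefSeq promoter sequences (build GRCm38.p6, 250 bases before to 50 bases after a RefSeq transcription start) were found for 35 of the 41 genes, all but Mcm4, Gins1, Gins2, Ccne2, Rfc2 and Pole. They hold 41 windows, since Mcm7, Cdc7, Fen1, Lig1 and Uhrf1 have more than 1 RefSeq start, and a match in any window of a gene was counted, for these genes and for the whole table alike. Capitals mark a match on either strand to 1 of 4 spellings of the E2F element (TTTCCCGC, TTTCGCGC, TTTGCCGC and TTTGGCGC), with 15 bases on each side or up to the start. RefSeq starts can differ from the gene starts in GENCODE M21. Measured from the GENCODE start, the stretches of Mcm5, Mcm6 and Pola1 lie before the gene start, that of Orc1 lies across it, and those of Mcm7, Gins3, Cdc6, Rfc3 and Uhrf1 lie after it, from 9 to 829 bases into the gene. Each line runs 5′ to 3′ on the strand of the gene. Where 2 matches overlap, on opposite strands, they form 1 run of capitals, as in Mcm5 and in the first run of Mcm6. The stretches lie at chr8:75109341-75109382 (plus strand) for Mcm5, chr1:128359730-128359830 (minus strand) for Mcm6, chr5:138172026-138172063 (minus strand) for Mcm7, chr8:95633503-95633540 (plus strand) for Gins3, chr11:98907998-98908035 (plus strand) for Cdc6, chr4:108579412-108579449 (plus strand) for Orc1, chrX:93632271-93632308 (minus strand) for Pola1, chr5:151651209-151651233 (minus strand) for Rfc3 and chr17:56304113-56304150 (plus strand) for Uhrf1.
Mcm5: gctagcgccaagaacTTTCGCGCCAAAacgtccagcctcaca
Mcm6: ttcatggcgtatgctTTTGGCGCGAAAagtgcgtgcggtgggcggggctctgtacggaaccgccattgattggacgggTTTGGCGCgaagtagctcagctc
Mcm7: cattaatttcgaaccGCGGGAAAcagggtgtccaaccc
Gins3: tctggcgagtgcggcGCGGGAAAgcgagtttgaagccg
Cdc6: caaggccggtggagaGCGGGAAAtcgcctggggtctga
Orc1: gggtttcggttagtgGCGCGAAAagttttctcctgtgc
Pola1: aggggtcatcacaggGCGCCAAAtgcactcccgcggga
Rfc3: agtgacgtcgcacgcTTTCGCGCtc
Uhrf1: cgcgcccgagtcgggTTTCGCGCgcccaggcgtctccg

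An E2F match in the window of 300 bases was found in 13 of the 35 promoters, or 37.1% (exact 95% binomial interval 21.5% to 55.1%, counting error only), against 704 of the 27025 promoters of the whole table, or 2.60%. With 1 window per gene, at the RefSeq start farthest upstream (chosen after seeing the data), the shares were 31.4% and 2.33%. In Cdt1, Lig1, Mcm3 and Pold1 the match lay at or after the RefSeq start, so no stretch is printed for those 4. The promoters were also richer in G and C than the rest, with a median GC content of 61.3% in the 35 against 52.8% over all 27025, and the part of base composition in the share of matches was not tested. CCAAT, the element bound by NF-Y, was found on either strand in 20 of the 35 promoters (57.1%) and in 41.1% of all promoters. TTTGAA, the core of the cell cycle genes homology region that many mitotic genes carry, was found in 5 of the 35 (14.3%) and in 20.2% of all promoters. A match describes the letters of the window and is neither a binding site nor a cause, and the absence of a match says nothing about the factor.

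The libraries held 34019925 to 66147200 counts each. Het-labelled replicate 2 stood apart: at a depth equal to the smallest total, 14653 genes were detected in it and 15175 to 15911 in each of the others, and the first principal component (38.6% of the variance) separated it from them. The targeted gene went against its label: Pth1r was at 961, 608 and 472 CPM (counts brought to 1 depth, with edgeR's TMM correction for differences in composition) in KO-labelled replicates 0, 1 and 2, against 371, 286 and 346 CPM in Het-labelled replicates 0, 1 and 2, with adjusted p = 0.740 in edgeR's quasi-likelihood test and 0.0564 in DESeq2. Counts per gene cannot separate transcript from a deleted allele, and which exons were deleted is not given in the labels. Every direction below is therefore a direction between libraries as labelled. Pthlh, the gene of PTHrP, was at 317 ± 28.5 CPM in KO-labelled and 289 ± 47.4 CPM in Het-labelled libraries (SD, n = 3 each), and all 15 follicle and mesenchyme markers were present in every library.

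Replication and licensing genes had on balance slightly higher fitted values in the KO-labelled libraries, and none of them passed the test. The log2 fold change of KO-labelled over Het-labelled libraries was positive for 33 of the 41 genes (80.5%), against 49% of all genes tested. Its median was 0.25, with quartiles of 0.057 and 0.44, against a median of -0.0095 and quartiles of -0.26 and 0.26 over all genes tested. Single values, given below as the log2 fold change ± its standard error, ran from -0.28 for Rfc2 to 0.71 for Mcm3, as the plot of fitted log2 fold changes shows. The median moved to 0.42 without KO-labelled replicate 1 and to 0.16 without KO-labelled replicate 2. Without Het-labelled replicate 2, the library that stood apart, it was 0.37 with 38 of 41 positive. In bulk RNA of sorted cells, more cells in S phase and more RNA per cell cannot be told apart.

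**Figure D1:**
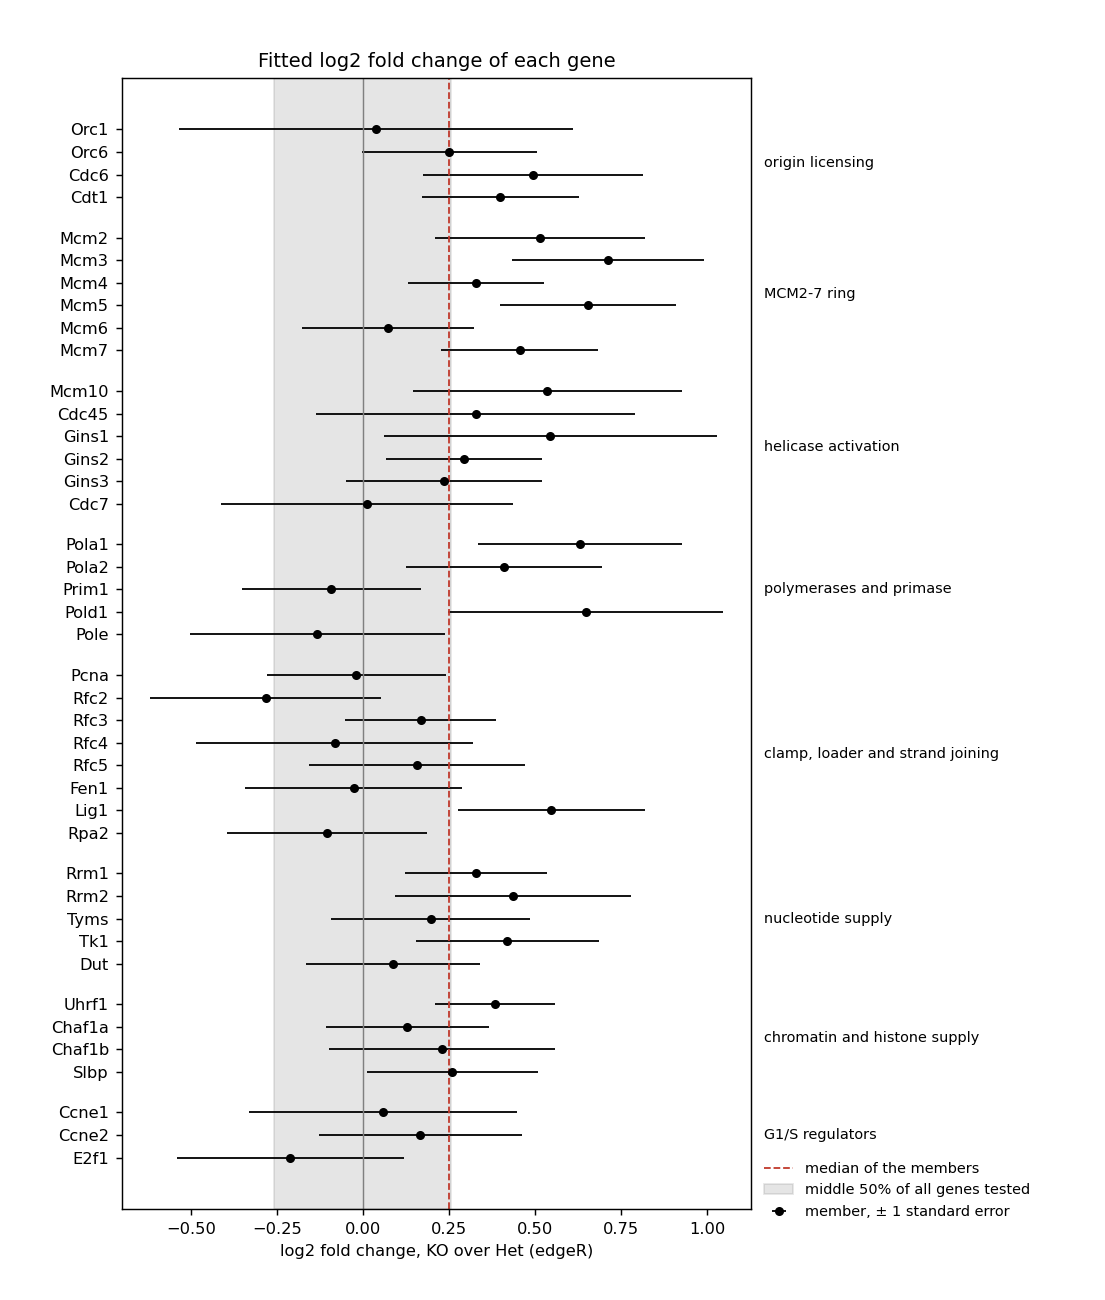
Fitted log2 fold change of KO-labelled over Het-labelled libraries (x axis) for each of the 41 genes, grouped by role, with bars of 1 standard error (edgeR, 3 libraries each). The grey band holds the middle 50% of all genes tested, and the dashed line is the median of the 41 genes, at 0.25; 33 genes lie right of 0, and 5 of the 8 genes left of 0 belong to the clamp, its loader and strand joining, all 5 of which lie right of 0 without Het-labelled replicate 2.

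By edgeR's quasi-likelihood test with Benjamini-Hochberg adjustment over all genes, 0 of the 41 genes and 0 of the 14632 genes tested (0%) had an adjusted p under 0.05. The smallest adjusted p of the 41 was 0.976, and across 18 alternatives in scaling, filter, test, unit and libraries left out it was 0.630, under DESeq2. At an unadjusted p under 0.05 there were 2 of the 41 genes (4.88%), Mcm3 and Mcm5, against 4.29% of all genes tested in either direction. In the higher direction alone all genes gave 2.58%, and both genes were in it. DESeq2 called 0 of the 41 genes and 87 of 17084 (0.509%). All 3 KO-labelled libraries lay above all 3 Het-labelled libraries for 3 of the 41 genes (7.32%), Mcm5, Rrm1 and Uhrf1, against 5.84% of all genes tested. The opposite order was seen for 0 of the 41 genes, against 4.83% of all genes tested. The shares called or non-overlapping in the higher direction were near the background in this fit, but the count at an unadjusted p under 0.05 rested on single libraries. It was 8 of the 41 genes without KO-labelled replicate 1 (3.19% of all genes tested) and 7 without Het-labelled replicate 2 (5.94%). It was 0 without KO-labelled replicate 0 (2.84%), 0 without Het-labelled replicate 1 (6.51%) and 1 without KO-labelled replicate 2 (3.97%). By test it was 10 under limma-voom with quality weights (6.53%), 5 with the replicate number as a block (6.21%), 3 under DESeq2 (6.06%) and 0 in the fits to log2 FPKM (2.83% to 3.75%). The 41 genes are transcribed together and are not independent, so their shared direction is given as a description with no test.

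The 4 licensing genes chosen for the set had a median log2 fold change of 0.33, with all 4 fitted values above 0. Orc2, Orc3, Orc4 and Orc5, further subunits of the origin recognition complex that are not in the set, were at 0.29, 0.084, -0.064 and 0.21. The sign of Orc1 did not hold: its log2 fold change was -0.01 when library totals alone set the scale, and -0.10, -0.23 and -0.24 without KO-labelled replicate 2, Het-labelled replicate 0 and Het-labelled replicate 2. Cdt1, which brings the MCM ring to the origin and is held in check by geminin, was at 50.2, 33.8 and 44.6 CPM in KO-labelled replicates 0, 1 and 2, against 30.3, 29.3 and 38.0 CPM in Het-labelled replicates 0, 1 and 2. The groups overlapped because KO-labelled replicate 1 lay below Het-labelled replicate 2, and the log2 fold change was 0.40 ± 0.23. Cdc6, the ATPase that recruits the ring together with the origin recognition complex, averaged 21.9 ± 7.99 CPM in KO-labelled and 15.5 ± 0.352 CPM in Het-labelled libraries (SD, n = 3 each, as for the means that follow). Orc6, the smallest subunit of that complex, averaged 34.3 ± 4.64 CPM in KO-labelled and 28.8 ± 7.33 CPM in Het-labelled libraries. Orc1, the subunit whose level limits the complex to G1 phase in human cells, averaged 4.91 ± 0.819 CPM in KO-labelled and 4.79 ± 3.31 CPM in Het-labelled libraries, and Het-labelled replicate 1 alone held the highest value.

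The MCM2-7 ring, the hexamer that becomes the replicative helicase, had a median log2 fold change of 0.49, between 0.36 and 0.70 with any 1 library left out, with all 6 fitted values above 0, although Mcm6 was at -0.11 without Het-labelled replicate 0. Mcm3 (chr1:20802968-20820312, minus strand, GRCm38) was at 174, 81.6 and 144 CPM in KO-labelled replicates 0, 1 and 2, against 88.6, 69.0 and 86.1 CPM in Het-labelled replicates 0, 1 and 2. Its groups overlapped, since KO-labelled replicate 1 lay below Het-labelled replicates 0 and 2, and the log2 fold change was 0.71 ± 0.28 (edgeR, adjusted p = 0.976). For Mcm5 the KO-labelled libraries held 163, 98.0 and 146 CPM, against 96.9, 63.5 and 97.7 CPM in the Het-labelled ones. Here the groups did not overlap, but KO-labelled replicate 1 was only just above Het-labelled replicate 2, and the log2 fold change was 0.65 ± 0.26.

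Mcm2 had 148, 82.7 and 158 CPM in KO-labelled and 83.1, 66.9 and 122 CPM in Het-labelled libraries. Mcm7 had 171, 102 and 159 CPM in KO-labelled and 114, 107 and 93.8 CPM in Het-labelled libraries. In both genes KO-labelled replicates 0 and 2 lay above all Het-labelled libraries, and KO-labelled replicate 1 lay below 2 of them. The log2 fold changes were 0.51 ± 0.30 for Mcm2 and 0.46 ± 0.23 for Mcm7. Mcm4, at 138, 95.6 and 123 CPM in KO-labelled and 98.7, 85.6 and 99.6 CPM in Het-labelled libraries, showed the same order with a log2 fold change of 0.33 ± 0.20. Mcm6 differed in order, with 225, 183 and 217 CPM in KO-labelled and 144, 179 and 271 CPM in Het-labelled libraries. Its highest and its lowest library were both Het-labelled, and its log2 fold change was 0.073 ± 0.25. Mcm7 overlaps exons of Cops6 and Ap4m1 on the opposite strand and hosts Mir25 and Mir93, and the library kit does not mark strand, so its reads cannot be fully told apart from theirs.

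**Figure D2:**
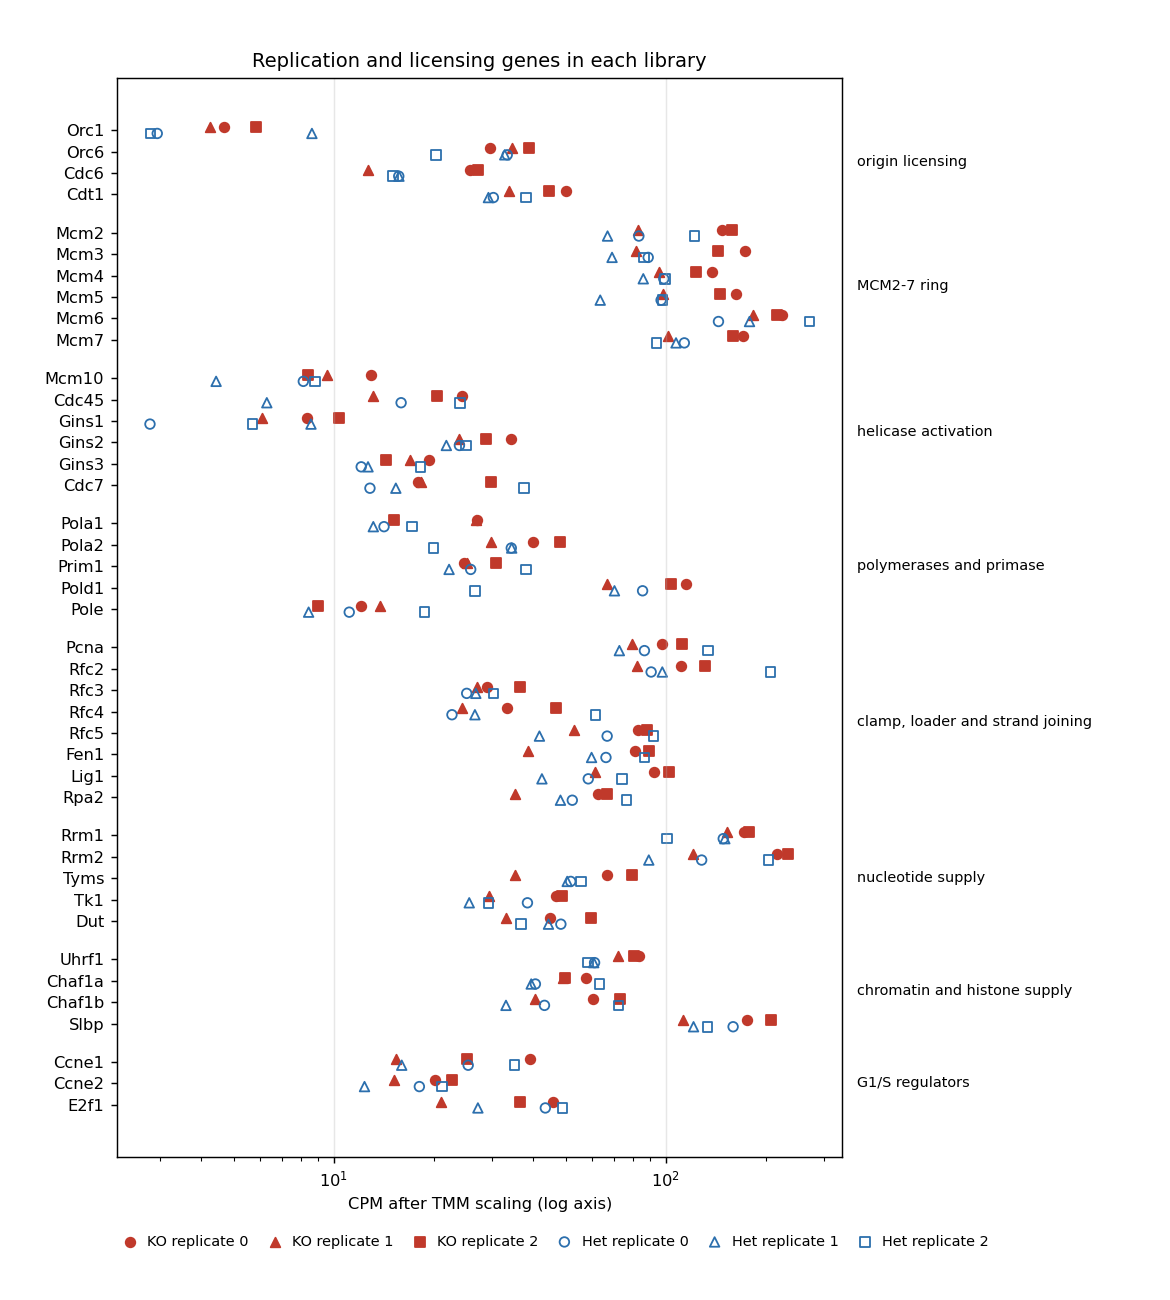
Level of each of the 41 genes in each library, in CPM after TMM scaling on a log axis, with KO-labelled libraries as filled and Het-labelled libraries as open symbols, grouped by role. For Mcm2, Mcm3, Mcm4, Mcm5 and Mcm7 the filled circle and square (KO-labelled replicates 0 and 2) lie right of all open symbols, and the filled triangle (replicate 1) lies among or next to them.

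The 6 genes of helicase activation among the 41 had a median log2 fold change of 0.31, and all 6 fitted values were above 0. Gins4, a subunit of the GINS complex that is not among the 41, was at -0.094. Cdc7 was at -0.0011 when library totals alone set the scale and between -0.27 and -0.19 without KO-labelled replicate 2, Het-labelled replicate 0 or Het-labelled replicate 1, and Cdc45 was at -0.05 without Het-labelled replicate 1. Gins1, Gins2 and Gins3 encode subunits of the GINS complex, which joins CDC45 and the MCM ring. Gins1 averaged 8.28 ± 2.16 CPM in KO-labelled and 5.68 ± 2.87 CPM in Het-labelled libraries. Gins2 averaged 28.9 ± 5.21 CPM in KO-labelled and 23.6 ± 1.62 CPM in Het-labelled libraries, and Gins3 averaged 16.9 ± 2.49 CPM in KO-labelled and 14.4 ± 3.41 CPM in Het-labelled libraries. The KO-labelled and Het-labelled ranges of all 3 overlapped. Mcm10, needed to start the loaded helicase, averaged 10.3 ± 2.41 CPM in KO-labelled and 7.11 ± 2.35 CPM in Het-labelled libraries. Cdc45, the helicase cofactor, averaged 19.4 ± 5.75 CPM in KO-labelled and 15.4 ± 8.87 CPM in Het-labelled libraries, with the lowest value in Het-labelled replicate 1. Cdc7, the kinase that phosphorylates the ring, averaged 22.1 ± 6.77 CPM in KO-labelled and 21.9 ± 13.5 CPM in Het-labelled libraries, with the highest value in Het-labelled replicate 2.

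Among the 5 genes of polymerases and primase the median log2 fold change was 0.41, with 3 of 5 above 0. Pola1, the catalytic subunit of polymerase alpha that begins each strand, was at 27.1, 26.8 and 15.2 CPM in KO-labelled replicates 0, 1 and 2, against 14.2, 13.2 and 17.2 CPM in Het-labelled replicates 0, 1 and 2. Unlike most of the 41 genes it was high in KO-labelled replicates 0 and 1 and low in KO-labelled replicate 2, which lay below Het-labelled replicate 2, and its log2 fold change was 0.63 ± 0.30. Pold1, the catalytic subunit of the lagging strand polymerase delta, had 115, 66.5 and 104 CPM in KO-labelled and 85.2, 70.1 and 26.6 CPM in Het-labelled libraries. Its lowest value by far was in Het-labelled replicate 2, the library that stood apart, and KO-labelled replicate 1 lay below the other 2 Het-labelled libraries; the log2 fold change was 0.65 ± 0.40. Pola2, the accessory subunit of polymerase alpha, averaged 39.3 ± 9.26 CPM in KO-labelled and 29.5 ± 8.29 CPM in Het-labelled libraries. Prim1, the primase catalytic subunit, averaged 26.9 ± 3.37 CPM in KO-labelled and 28.7 ± 8.21 CPM in Het-labelled libraries. Pole, the catalytic subunit of the leading strand polymerase epsilon, averaged 11.6 ± 2.44 CPM in KO-labelled and 12.8 ± 5.37 CPM in Het-labelled libraries. The log2 fold changes of Prim1 (-0.092) and Pole (-0.13) were the 2 below 0 here, and both were above 0 without Het-labelled replicate 2 (0.17 and 0.26).

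The clamp, its loader and the strand joining genes had a median log2 fold change of -0.023 in the reported fit, with 3 of 8 above 0, and this rested on single libraries. Without Het-labelled replicate 2, the library that stood apart, the median was 0.26 with 8 of 8 above 0, and without KO-labelled replicate 1 it was 0.19 with 7 of 8 above 0. It was -0.16 without Het-labelled replicate 1, -0.19 without KO-labelled replicate 2 and -0.093 without Het-labelled replicate 0. Lig1, the ligase that seals Okazaki fragments, was at 92.1, 61.4 and 102 CPM in KO-labelled replicates 0, 1 and 2, against 58.5, 42.4 and 74.0 CPM in Het-labelled replicates 0, 1 and 2. KO-labelled replicate 1 lay below Het-labelled replicate 2, and the log2 fold change was 0.55 ± 0.27. Pcna, the sliding clamp and a common marker of cycling cells, averaged 96.3 ± 16.6 CPM in KO-labelled and 97.7 ± 32.3 CPM in Het-labelled libraries, a log2 fold change of -0.020 that was just above 0 (0.0026 to 0.0028) on the log2 FPKM scale. The annotation names 2 pseudogenes of Pcna, so its reads may be split between copies. Rfc2, a subunit of the clamp loader, had the lowest log2 fold change of the 41, -0.28 ± 0.34, with 112, 82.1 and 131 CPM in KO-labelled and 90.5, 97.7 and 207 CPM in Het-labelled libraries. Het-labelled replicate 2 alone was high, and without it the log2 fold change was 0.20. Of the other loader subunits, Rfc3 was at 0.17, Rfc4 at -0.082 and Rfc5 at 0.16 on the log2 scale, and Rfc4 was at 0.50 without Het-labelled replicate 2, so that all 4 loader subunits were then above 0. Fen1, the flap nuclease that trims Okazaki fragments, averaged 69.5 ± 27.2 CPM in KO-labelled and 70.8 ± 13.9 CPM in Het-labelled libraries. Rpa2, a subunit of the single-strand binding protein, averaged 54.8 ± 17.1 CPM in KO-labelled and 59.0 ± 15.2 CPM in Het-labelled libraries. Rfc2, Rfc4 and Rfc5 each overlap an exon of a counted gene on the opposite strand, Lat2, Eif4a2 and Wsb2 in that order. Orc6, Gins2, Chaf1a and Ccne2 likewise overlap exons of Vps35, Gse1, Ubxn6 and Ints8.

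All 5 nucleotide supply genes had fitted values above 0, with a median log2 fold change of 0.33, although without KO-labelled replicate 2 Tyms was at -0.05 and Dut at -0.15, and without Het-labelled replicate 2 Dut was at -0.02. Rrm1, the large subunit of ribonucleotide reductase, was at 173, 153 and 178 CPM in KO-labelled replicates 0, 1 and 2, against 149, 151 and 101 CPM in Het-labelled replicates 0, 1 and 2. The groups did not overlap, but KO-labelled replicate 1 and Het-labelled replicate 1 were nearly equal, and the log2 fold change was 0.33 ± 0.21. Rrm2, the small subunit of the same enzyme, averaged 190.1 ± 60.5 CPM in KO-labelled and 141 ± 58.6 CPM in Het-labelled libraries. Tk1, the thymidine kinase of S phase, averaged 41.6 ± 10.7 CPM in KO-labelled and 31.1 ± 6.56 CPM in Het-labelled libraries, and it overlaps an exon of Afmid. Tyms, the enzyme that makes thymidylate, averaged 60.3 ± 22.7 CPM in KO-labelled and 52.6 ± 2.59 CPM in Het-labelled libraries, and the annotation names 1 pseudogene of it. Dut, which removes dUTP, averaged 45.8 ± 13.3 CPM in KO-labelled and 43.1 ± 5.95 CPM in Het-labelled libraries. The ranges of the 2 groups overlapped for Rrm2, Tk1, Tyms and Dut.

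The 4 chromatin and histone supply genes also had fitted values above 0, with a median log2 fold change of 0.24. Uhrf1, which guides maintenance methylation onto newly copied DNA, was at 83.1, 71.9 and 80.1 CPM in KO-labelled replicates 0, 1 and 2, against 61.1, 60.7 and 58.3 CPM in Het-labelled replicates 0, 1 and 2. The groups did not overlap and each was narrow, with a log2 fold change of 0.38 ± 0.17 (edgeR, adjusted p = 0.976). Chaf1a and Chaf1b, subunits of the factor that deposits histones behind the fork, overlapped between the groups. Chaf1a averaged 52.1 ± 4.77 CPM in KO-labelled and 47.7 ± 13.5 CPM in Het-labelled libraries, and Chaf1b averaged 58.0 ± 16.5 CPM in KO-labelled and 49.5 ± 20.3 CPM in Het-labelled libraries. Slbp, which binds the stem-loop of histone mRNA, averaged 165 ± 48.5 CPM in KO-labelled and 138 ± 19.6 CPM in Het-labelled libraries. Of the 3 regulators of the G1 to S transition, cyclin E gene Ccne1 averaged 26.5 ± 11.9 CPM in KO-labelled and 25.5 ± 9.51 CPM in Het-labelled libraries, and cyclin E gene Ccne2 averaged 19.4 ± 3.85 CPM in KO-labelled and 17.3 ± 4.49 CPM in Het-labelled libraries. E2f1, an activator of the genes above, averaged 34.4 ± 12.5 CPM in KO-labelled and 39.9 ± 11.3 CPM in Het-labelled libraries, a log2 fold change of -0.21. All 3 regulators overlapped between the groups, and their median log2 fold change of 0.057 was -0.31 without KO-labelled replicate 0, -0.19 without Het-labelled replicate 1, 0.32 without KO-labelled replicate 1 and 0.35 without Het-labelled replicate 2.

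Libraries of the same label differed from each other in a way that many of the 41 genes shared. KO-labelled replicate 1 was the lowest of its group for 34 of the 41 genes, and it lay above the mean of the Het-labelled libraries for only 17. KO-labelled replicate 0 lay above that mean for 35 genes and KO-labelled replicate 2 for 37, and both lay above all Het-labelled libraries for 17. Neither of those libraries was the lowest of the 6 for any of the 41 genes. Among the Het-labelled libraries, replicate 2 was the highest of its group for 28 genes and the highest of all 6 for 11, while replicate 1 was the lowest of all 6 for 19. The levels summed over the 41 genes were 3083, 2076 and 3149 CPM in KO-labelled replicates 0, 1 and 2, against 2230.0, 1962 and 2708 CPM in Het-labelled replicates 0, 1 and 2. KO-labelled replicate 1 thus lay below Het-labelled replicates 0 and 2 in the sum.

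**Figure D3:**
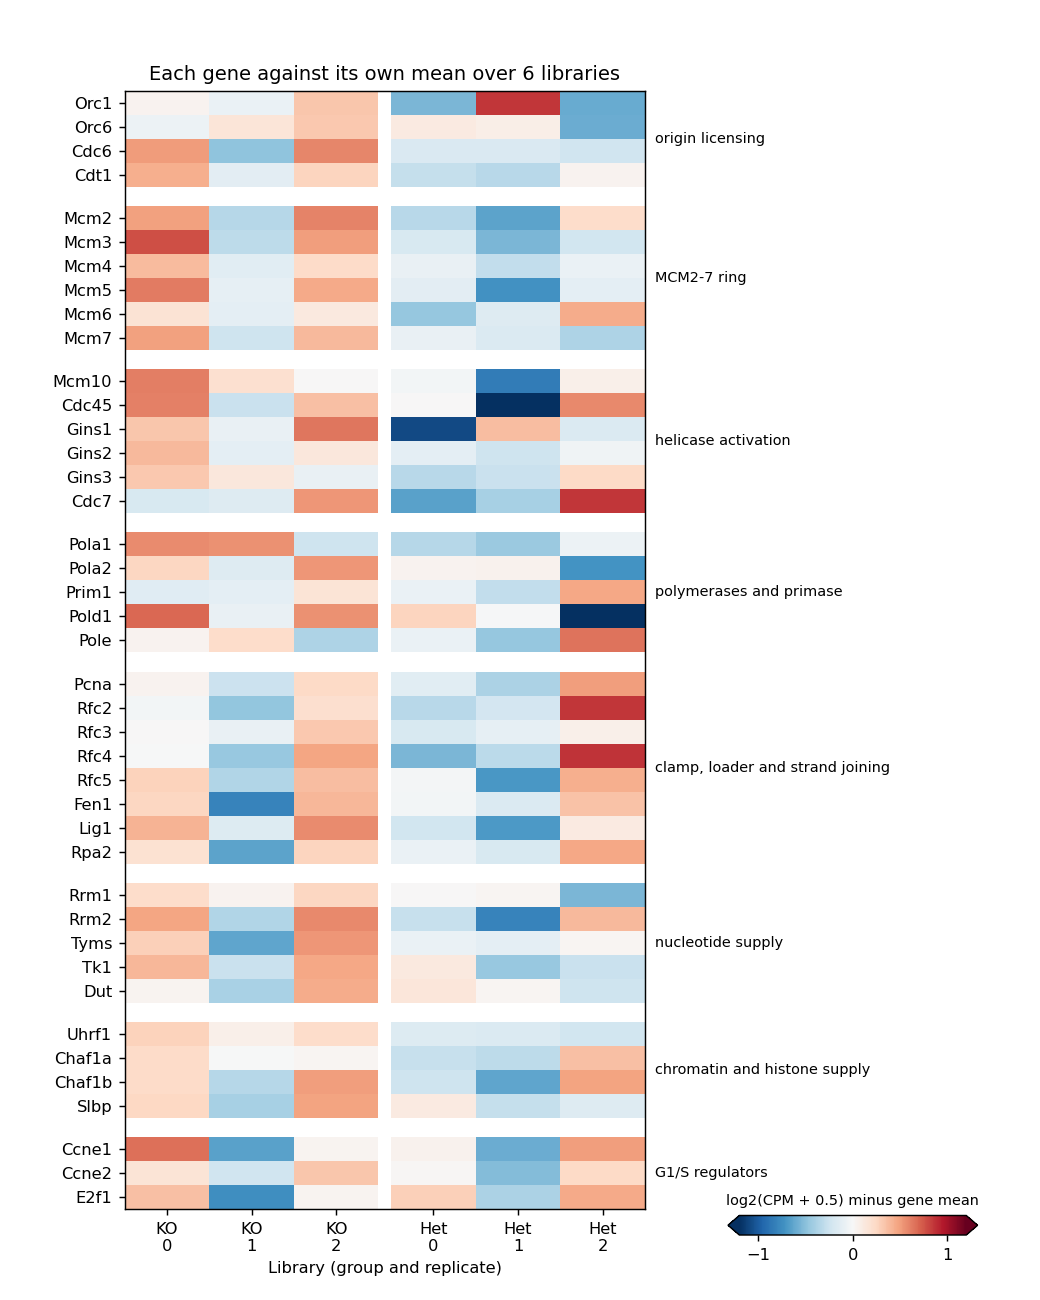
Difference of log2(CPM + 0.5) from the mean of each gene over the 6 libraries, with KO-labelled libraries left and Het-labelled libraries right, genes grouped by role and colours limited to ±1.2. KO-labelled replicates 0 and 2 are mostly red and KO-labelled replicate 1, the lowest of its group for 34 genes, is mostly blue or pale, while Het-labelled replicate 1 is the bluest column.

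Levels per length, in the deposited FPKM (fragments corrected for gene length and depth), spanned 60.0-fold between the highest and the lowest of the 41 genes, with a median of 22.5 FPKM. By the mean over all 6 libraries Rfc2 was the highest, at 77.6 ± 24.9 FPKM in KO-labelled and 97.1 ± 57.9 FPKM in Het-labelled libraries. It was followed by Slbp at 89.2 ± 22.2 FPKM in KO-labelled and 77.6 ± 23.2 FPKM in Het-labelled libraries and by Pcna at 76.5 ± 8.71 FPKM in KO-labelled and 77.0 ± 14.8 FPKM in Het-labelled libraries, and these 3 did not differ beyond their spread. Rrm2 (82.2 ± 23.3 FPKM in KO-labelled and 60.1 ± 15.2 FPKM in Het-labelled libraries), Mcm6 (66.6 ± 9.16 FPKM in KO-labelled and 64.1 ± 20.9 FPKM in Het-labelled libraries) and Mcm7 (61.4 ± 18.3 FPKM in KO-labelled and 44.8 ± 3.60 FPKM in Het-labelled libraries) came next, also within the spread of their neighbours. The lowest were Mcm10 (2.71 ± 0.701 FPKM in KO-labelled and 1.93 ± 0.776 FPKM in Het-labelled libraries), Pole (1.46 ± 0.277 FPKM in KO-labelled and 1.64 ± 0.721 FPKM in Het-labelled libraries) and Orc1 (1.45 ± 0.131 FPKM in KO-labelled and 1.46 ± 1.04 FPKM in Het-labelled libraries). Within the MCM ring, whose proteins assemble in equal numbers, the mean FPKM over all 6 libraries ran from 26.4 for Mcm4 to 65.4 for Mcm6.

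Genes with and without an E2F match were set side by side after their values had been seen. The 13 genes with a match, whose stretches are printed above for 9, had a median log2 fold change of 0.46 and a range of 0.038 to 0.71, and all 13 values were above 0, with the exceptions given above for Orc1 and Mcm6. The 22 genes with a promoter sequence but no match had a median of 0.18, and 16 of them were above 0. This difference was not tested.

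Other genes of replication had fitted values in the same direction, and none passed the test. Of 48 further replication genes found in the table, 37 had a log2 fold change above 0 (77.1%, against 49% of all genes tested), with a median of 0.23. By edgeR 0 of the 48 had an adjusted p under 0.05. At an unadjusted p under 0.05 there were 4 of the 48, against 4.29% of all genes tested. All KO-labelled libraries lay above all Het-labelled libraries for 7 of the 48, against 5.84% of all genes tested, and the opposite order was seen for 0, against 4.83%. The smallest p belonged to Shmt1, a folate enzyme that feeds thymidylate synthesis, at 28.8, 22.9 and 40.4 CPM in KO-labelled replicates 0, 1 and 2, against 16.7, 18.0 and 14.3 CPM in Het-labelled replicates 0, 1 and 2. Next were Recql4, a helicase that helps start replication, with 5.99, 4.14 and 7.40 CPM in KO-labelled and 1.56, 2.34 and 0.281 CPM in Het-labelled libraries, and Timeless, a fork protection factor, with 52.6, 43.8 and 42.1 CPM in KO-labelled and 34.9, 16.7 and 32.9 CPM in Het-labelled libraries. These 3 genes are among the 7 without overlap, and the log2 fold changes were 0.91 ± 0.27, 2.07 ± 0.78 and 0.71 ± 0.29, with adjusted p-values of 0.901 for Shmt1 and 0.976 for the other 2.

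Of 30 genes that control the G1 to S transition, 20 had a log2 fold change above 0 (66.7%, against 49% of all genes tested), with a median of 0.15. By edgeR 0 passed, and 2 of the 30 had an unadjusted p under 0.05, against 4.29% of all genes tested. The groups did not overlap for 6 of the 30. Of these, 4 were higher in the KO-labelled libraries, against 5.84% of all genes tested, and 2 were lower, against 4.83%. E2f2, an E2F activator, was at 16.4, 17.0 and 16.6 CPM in KO-labelled replicates 0, 1 and 2, against 9.46, 6.54 and 6.77 CPM in Het-labelled replicates 0, 1 and 2, without overlap (log2 fold change 1.13 ± 0.29, edgeR adjusted p = 0.734). Fbxo5, which restrains the anaphase promoting complex, averaged 24.6 ± 3.79 CPM in KO-labelled and 15.7 ± 2.70 CPM in Het-labelled libraries, and Mycn, a growth-promoting transcription factor, averaged 27.4 ± 14.4 CPM in KO-labelled and 15.6 ± 1.71 CPM in Het-labelled libraries. Ccnd1, the cyclin that drives G1 phase, was at 167, 185 and 248 CPM in KO-labelled and 123, 195 and 139 CPM in Het-labelled libraries, and the groups overlapped. Cdkn1a, the cyclin-dependent kinase inhibitor p21, averaged 244 ± 45.2 CPM in KO-labelled and 218 ± 69.3 CPM in Het-labelled libraries.

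Of 25 mitosis genes, 21 had a log2 fold change above 0 (84%, against 49% of all genes tested), with a median of 0.30. By edgeR 0 passed, and 1 of the 25 had an unadjusted p under 0.05, against 4.29% of all genes tested. The KO-labelled libraries lay above all Het-labelled libraries for 4 of the 25, against 5.84% of all genes tested. They lay below them for 0, against 4.83%. Bub1, a kinase of the spindle checkpoint, averaged 21.4 ± 5.31 CPM in KO-labelled and 12.2 ± 4.88 CPM in Het-labelled libraries, and Nuf2, a kinetochore protein, averaged 30.4 ± 6.24 CPM in KO-labelled and 19.9 ± 5.76 CPM in Het-labelled libraries. Top2a, the topoisomerase that untangles sister DNA, averaged 106 ± 15.3 CPM in KO-labelled and 79.0 ± 7.82 CPM in Het-labelled libraries, with no overlap between the groups and a log2 fold change of 0.43. Mki67, which encodes the proliferation marker Ki-67, was at 83.2, 58.0 and 60.8 CPM in KO-labelled replicates 0, 1 and 2, against 42.0, 61.3 and 71.1 CPM in Het-labelled replicates 0, 1 and 2. Its highest library was KO-labelled and its lowest Het-labelled, and the groups overlapped.

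Markers of other cells differed between libraries beside these values, and their part in the results was not tested. The 11 dental epithelium markers summed to 9422, 5992 and 11970.5 CPM in KO-labelled replicates 0, 1 and 2, against 9116, 9227 and 6027 CPM in Het-labelled replicates 0, 1 and 2. None was at 0 in any library, 4 of 11 had a log2 fold change above 0, and KO-labelled replicate 1 was the lowest of its group in this sum as in that of the replication genes. The 14 macrophage and leukocyte markers summed to 34.2, 121 and 186 CPM in KO-labelled libraries, against 26.3, 113 and 75.0 CPM in Het-labelled libraries. Of these, 13 had a log2 fold change above 0, while Emr1, an older symbol of Adgre1, was at 0 in Het-labelled replicates 0 and 2 and C1qa at 0 in Het-labelled replicate 0. The 9 neutrophil precursor markers in the table summed to 88.7, 122 and 290.1 CPM in KO-labelled and 7.09, 492 and 308 CPM in Het-labelled libraries. The 7 erythroid markers in the table ranged from 30.1 to 58.0 CPM in KO-labelled and from 25.6 to 50.3 CPM in Het-labelled libraries in sum, and the 10 endothelial markers from 49.2 to 69.7 CPM in KO-labelled and from 65.3 to 84.2 CPM in Het-labelled libraries. The 15 follicle and mesenchyme markers summed to 83044, 60819 and 44898 CPM in KO-labelled and 62958, 51446 and 30764 CPM in Het-labelled libraries. Col1a1, Col1a2 and Col3a1 made up most of this sum, at 41011, 16819 and 21256 CPM in KO-labelled replicate 0. Replicate 2 was the lowest of both groups in it. The mean of log2(CPM + 0.5), which weighs the 15 markers alike, was 9.29, 9.10 and 8.81 in KO-labelled and 9.05, 8.98 and 8.82 in Het-labelled libraries. Single markers differed in order. Msx1 was lowest in replicate 1 of both groups, with 199, 127 and 170 CPM in KO-labelled and 238, 190 and 256 CPM in Het-labelled libraries.

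**Figure D4:**
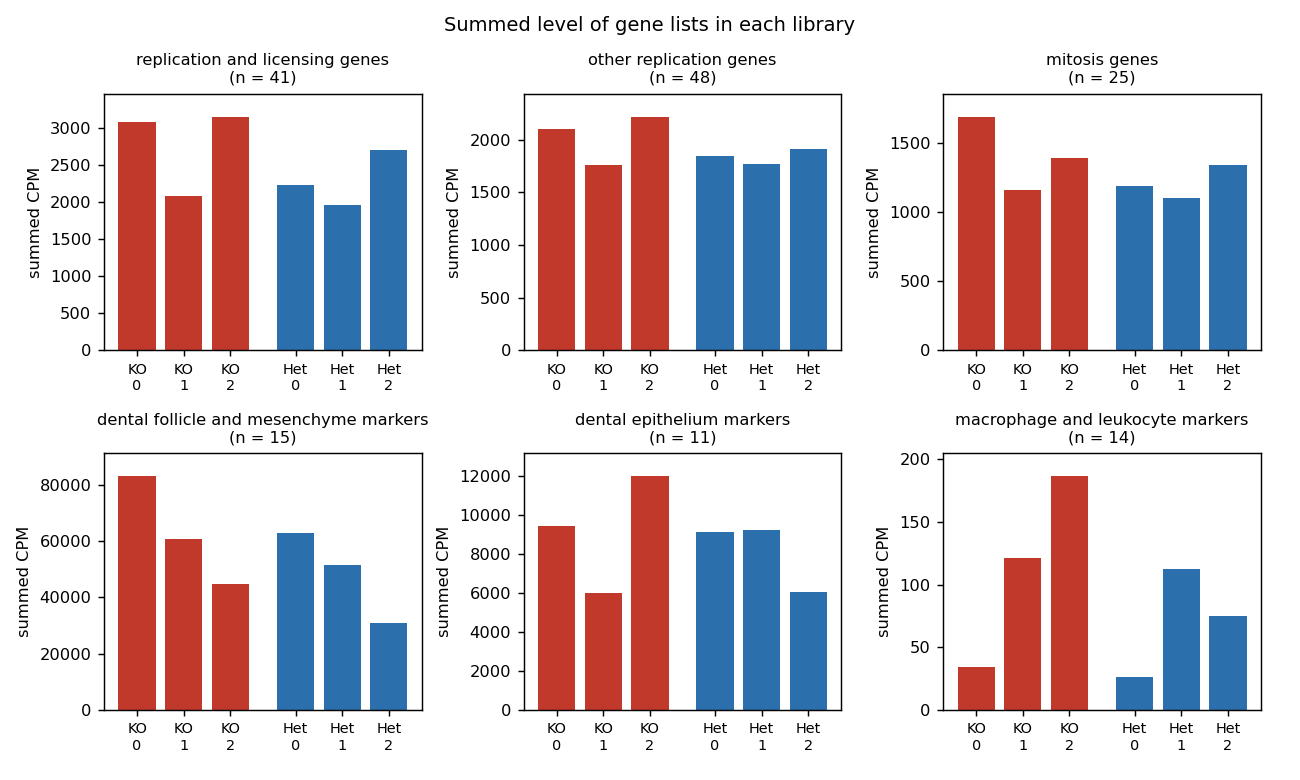
Summed CPM of 6 gene lists (y axis, each from 0) in each library, KO-labelled left in red and Het-labelled right in blue. In the 41 replication and licensing genes KO-labelled replicate 1 is the low KO-labelled bar and Het-labelled replicate 2 the high Het-labelled bar, an order shared by the other replication genes and the mitosis genes.

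**Figure D5:**
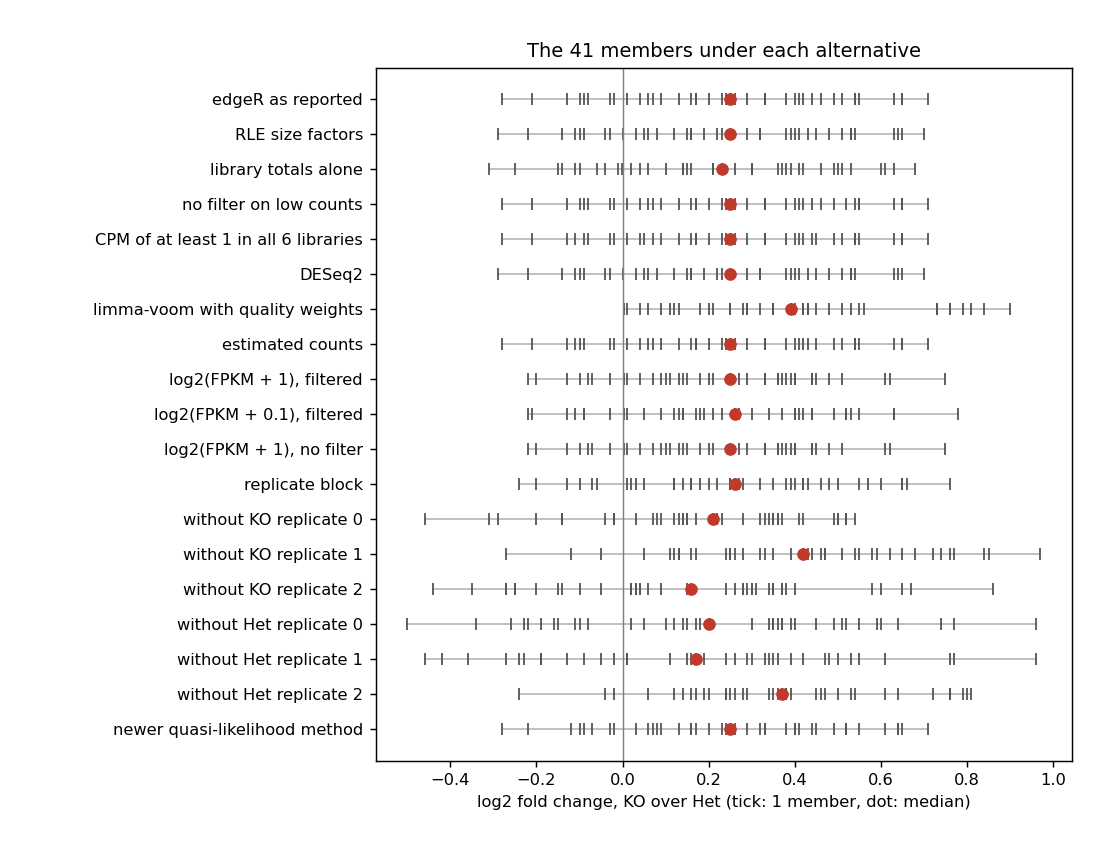
Log2 fold change of KO-labelled over Het-labelled libraries (x axis) of the 41 genes under the fit as reported and 18 alternatives, with 1 tick per gene and a dot at the median. All medians lie above 0, from 0.16 without KO-labelled replicate 2 to 0.42 without KO-labelled replicate 1, and ticks lie left of 0 under 18 of the 19 fits shown.

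The direction was positive for 24 of the 41 genes under the reported fit and all 18 alternatives, and negative in all of them for 0. The number of genes above 0 ran from 28 without Het-labelled replicate 1 to 41 under limma-voom with quality weights, which gives each library a weight by its fit. That method gave Het-labelled replicate 2 the lowest weight, 0.345, and KO-labelled replicate 0 the highest, 2.2. With any 1 library left out, the median stayed above 0 for every role except the G1/S regulators and the genes of the clamp, its loader and strand joining. As the plot of alternatives shows, leaving out a single library moved the median more than any scaling or filter did.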

How the data were processed

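RNA was measured in tdTomato+ cells sorted from dissociated dental follicles. Per the labels' protocols, a PicoPure kit gave the RNA, a SMART-Seq v4 low-input kit, which does not mark strand, the cDNA, and a Nextera XT kit the libraries. No molecular identifiers are mentioned, so reads are not independent molecules. The 1 interval given, on a share of promoters, is binomial; the other errors come from the spread between libraries. According to the submitters' processing notes, the mm10 genome, TopHat2 2.0.13, Bowtie2 2.2.1, HTSeq, Cufflinks, Cuffdiff and DESeq2 were used, without stating their roles, and neither the annotation nor the strand setting is stated there. The table tested holds whole-number counts per gene as deposited by the authors, without normalization. Further deposited tables hold estimated counts, which were rounded and used as an alternative, and FPKM as the authors computed it, used for levels between genes. For 39 of the 41 genes the counts lay within 1% of the estimated counts.

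Counts of 6 libraries were fitted in R 4.3.3 with edgeR 4.0.16 (quasi-likelihood test, group alone as covariate, TMM, default filter, two-sided, Benjamini-Hochberg adjustment over 14632 genes, threshold 0.05), and standard errors were derived from the F statistic. CPM are scaled by TMM and given as mean ± SD. Alternatives used DESeq2 1.42.0, limma 3.58.1 (voom with quality weights, and log2(FPKM + 1) or log2(FPKM + 0.1), a scale that understates changes of low genes), other scalings and filters, the replicate number as a block, and each library left out. The script was tested on simulated data. No pair of libraries agreed within sampling noise (chi-square per degree of freedom 86.2 or more), so each was counted as 1 sample. The sample titles gave the groups and replicate numbers.

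The rule for the members uses no measured value, but the members, the gene lists and the tests were chosen with earlier results of these data known. Values in every library are given for the MCM2-7 subunits and the 10 members with the smallest p, and also, after their values were seen, for Rrm1 and Rfc2; other members are given by group means or counts. Of 3 further lists, the 3 genes with the smallest p, Mki67, Top2a, Ccnd1 and Cdkn1a are named. Orc2, Orc3, Orc4, Orc5 and Gins4 are named too, after their values were seen. Of 49 further replication genes listed, 48 were in the table. Gene overlaps and pseudogenes came from GENCODE M21 (GRCm38, the assembly of mm10).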

Additional observations from a re-analysis of the deposited data

How the results depend on the processing

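The number of genes past the threshold over all genes, 0 as reported, was 1 with a CPM of at least 1 in all 6 libraries, under limma-voom with quality weights, under the 3 fits to log2 FPKM, under edgeR's newer quasi-likelihood method (chosen after seeing the data) and at an adjusted p of 0.1. It was 87 under DESeq2, and 0 to 1 with each library left out, the 1 without Het-labelled replicate 0. None of the 41 genes passed under any of these. Their median log2 fold change ranged from 0.16 to 0.42 and the number above 0 from 28 to 41, and the median of all genes stayed within 0.032 of 0 under every alternative.

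Same-numbered libraries are not said to be paired. Their deviations from the group means correlated at 0.17, 0.075 and 0.069 for numbers 0, 1 and 2, not all over 0.1, although each KO-labelled library correlated best with its own number, a hint from the data and not the design. With the replicate number as a block, 0 genes passed, the median of the 41 genes was 0.26 and 35 were above 0; Pcna was then at 0.02 and Rfc4 at 0.01.

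Fitted values changed sign in places, and the cause was not tested. Not all of them were near 0 in the reported fit, where Cdc45 was at 0.33, Rfc2 at -0.28, E2f1 at -0.21 and Tyms at 0.20. Under limma-voom the 8 genes below 0 were above it: Pcna 0.2, Pole 0.12, Prim1 0.04, Rfc2 0.09, Rfc4 0.35, Fen1 0.13, Rpa2 0.11 and E2f1 0.01. With library totals alone Cdc7 was at -0.0011 and Orc1 at -0.01, and on the FPKM scales Pcna was at 0.0026, 0.0028 and 0.0026. With each library left out in turn, the log2 fold change crossed 0 for 17 genes, with ranges of -0.11 to 0.37 for Mcm6, -0.19 to 0.28 for Pcna, -0.05 to 0.47 for Tyms, -0.05 to 0.8 for Cdc45, -0.27 to 0.64 for Cdc7, -0.24 to 0.77 for Orc1, -0.36 to 0.26 for Pole, -0.24 to 0.17 for Prim1, -0.5 to 0.2 for Rfc2, -0.35 to 0.5 for Rfc4, -0.09 to 0.46 for Rfc5, -0.25 to 0.26 for Fen1, -0.27 to 0.13 for Rpa2, -0.31 to 0.36 for Ccne1, -0.02 to 0.35 for Ccne2, -0.46 to 0.05 for E2f1 and -0.15 to 0.28 for Dut. With 3 libraries a group, edgeR recovered 19.0% of simulated 2-fold and 69.0% of simulated 4-fold changes. The changed genes were drawn at random from all genes tested. The simulation held no library that stood apart and no shift shared between genes, so these rates need not hold for the 41 genes. All 41 fitted values in the reported fit are below 2-fold. An E2F match by 2 spellings alone was found in 28.6% of the promoters, and by 4 spellings with 1 window per gene in 31.4%.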
